A study of Rattus norvegicus with 6 samples.

Results

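The genes of the let-7 axis are the regulators and best known targets of the let-7 microRNAs. Of 10 genes taken by symbol, 7 had a probe set that names that gene alone, among 14506 such genes on the array, and each of the 7 had 1 probe set. These were Lin28a, Trim71, Dicer1, Hmga1, Hmga2, Igf2bp1 and Arid3b. Lin28b, Igf2bp2 and Igf2bp3 had no probe set naming that gene alone, and no value is given for them. Transcripts were measured on 6 one-colour Affymetrix arrays of cortical neurons isolated from Sprague-Dawley rat embryos at day 18 and kept for 3 days in NB-N2 medium. Untreated neurons supplied 3 of the arrays, and the other 3 came from neurons given C1q, the recognition protein of the classical complement pathway, at 10 nM for 3 h. The labels do not say whether arrays of 1 group came from separate cultures or embryos, so p-values reflect only how much these arrays scatter, which may be technical scatter.

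Let-7 microRNAs build up as cells leave the progenitor state and differentiate. Loaded on an Argonaute protein, they pair through their seed with sites in messenger RNAs, which lowers the stability and translation of those transcripts. The RNA-binding proteins Lin28a and Lin28b act the other way. They bind the let-7 precursor and block its maturation, and their own transcripts are let-7 targets, which makes the pathway a double-negative loop. In developing brain, Lin28 proteins and several let-7 targets are known from dividing neural progenitors and are turned down as neurons mature.

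The mature let-7 sequences are shown because let-7 targets are recognised through their shared seed. RefSeq's table for the GRCr8 rat assembly holds 9 mature names of the family, miR-98 included, and bases 2 to 8, in capitals, were the same in all 9.
let-7a-5p: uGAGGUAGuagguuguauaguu
let-7b-5p: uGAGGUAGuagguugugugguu
let-7c-5p: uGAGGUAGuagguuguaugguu
let-7d-5p: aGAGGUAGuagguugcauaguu
let-7e-5p: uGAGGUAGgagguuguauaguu
let-7f-5p: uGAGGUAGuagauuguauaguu
let-7g-5p: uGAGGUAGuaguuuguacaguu
let-7i-5p: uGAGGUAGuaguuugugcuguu
miR-98-5p: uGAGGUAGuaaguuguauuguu

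Outside the seed, the other members differed from let-7a at 1 to 4 of 22 positions, and let-7c, let-7e and let-7f differed at 1. No other name among the 693 mature names in the table had this seed. The levels of the microRNAs themselves were not analysed here, and no probe set names a let-7 precursor gene alone.

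Lin28 proteins are known to grip the precursor through the letters GGAG in its loop, so the hairpins were searched on their own strand for GGAG between the mature arms. It was found in 8 of 9 let-7 hairpins with both arms listed, miR-98 not counted, beside 24 of all 263 such hairpins in the table, or 9.13%, a figure that includes the let-7 hairpins. Among these 9 the exception was let-7c-2. The let-7b hairpin was not searched, and let-7c-1, with 1 arm listed, was not counted. A match is a description of the letters and not of binding. A pair of hairpins with the letters, in capitals, and the one without are shown.
let-7a-1, chr17:16320133-16320226, plus strand: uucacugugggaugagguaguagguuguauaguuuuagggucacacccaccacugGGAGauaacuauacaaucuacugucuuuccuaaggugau
let-7g, chr8:115701020-115701107, plus strand: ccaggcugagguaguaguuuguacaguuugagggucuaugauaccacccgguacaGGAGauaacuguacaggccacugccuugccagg
let-7c-2, chr7:118683623-118683717, plus strand: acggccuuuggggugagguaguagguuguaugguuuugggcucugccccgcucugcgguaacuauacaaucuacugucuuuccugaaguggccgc

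The deposited values are intensities on a linear scale, with array medians between 147 and 155, and no background level was used. Probe sets bind with different efficiency, so an intensity places a probe set among the others and does not order genes by transcript number. The labelled cell type was checked by marker genes. All 8 cortical neuron markers with a value lay above the filter on dim probe sets, which kept the brightest 60% with a mean intensity over 94.4, as did 10 of 11 markers of radial glia and cycling progenitors. Also above it were 5 of 5 markers of inhibitory neurons, 5 of 6 of astrocytes and 4 of 4 of the oligodendrocyte lineage. So were 9652 of all 14506 genes. Untreated means ran from 772 to 8601 for cortical neuron markers, 682 to 1846 for inhibitory neuron markers and 82.0 to 3010 for progenitor markers. Those of the oligodendrocyte lineage ran from 130 to 268. Among astrocyte markers Aldoc stood at 1606 and the others ran from 51.7 to 320. Of 6 microglial markers 5 lay below the filter, as did 3 of 5 endothelial markers and 3 of 6 mural and meningeal markers. Among the last, Acta2, an actin gene, was bright at 6837 in untreated neurons, while the other 5 ran from 12.1 to 189. Summed intensity over the 11 progenitor markers ran from 9783 to 10126 on untreated and from 9495 to 9855 on C1q arrays. All 4 blood markers with a value lay above the filter, and their summed intensity ran from 2012 to 2262 on untreated and from 2293 to 2477 on C1q arrays. The globin genes Hbb and Hba-a3 were the 2 listed markers whose groups did not overlap, with C1q above at folds of 1.19 and 1.12. Limma gave each an adjusted p of 0.9999, and unadjusted p of 0.00334 for Hbb and 0.0134 for Hba-a3. Groups did not overlap for 4.96% of all 9652 genes tested on 1 probe set each, and 0.684% had an unadjusted p under 0.05. Alas2 and Ppbp, at 140 and 106 in untreated neurons, had folds of 0.987 and 1.01. The part of other cells in the values below was not tested, and in a bulk sample fewer cells of a type cannot be told apart from less RNA per cell.

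Of the 7 let-7 axis genes, 6 lay above the filter in these neurons and were tested, and Lin28a did not. Dicer1 and Hmga1 lay in the upper part of all 29215 probe sets by untreated level, Igf2bp1 next, Arid3b, Hmga2 and Trim71 near the middle, and Lin28a among the dim ones. In percentiles of all probe sets the untreated level was 89.3 for Dicer1, 82.5 for Hmga1, 73.0 for Igf2bp1, 53.1 for Arid3b, 52.7 for Hmga2, 45.3 for Trim71 and 15.2 for Lin28a. Arid3b and Hmga2, neighbours in this order, had overlapping untreated intensities. After C1q the percentiles were 89.6, 82.4, 72.8, 52.0, 52.6, 45.2 and 12.4 in the same order of genes, so that Arid3b and Hmga2 changed places.

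**Figure D1:**
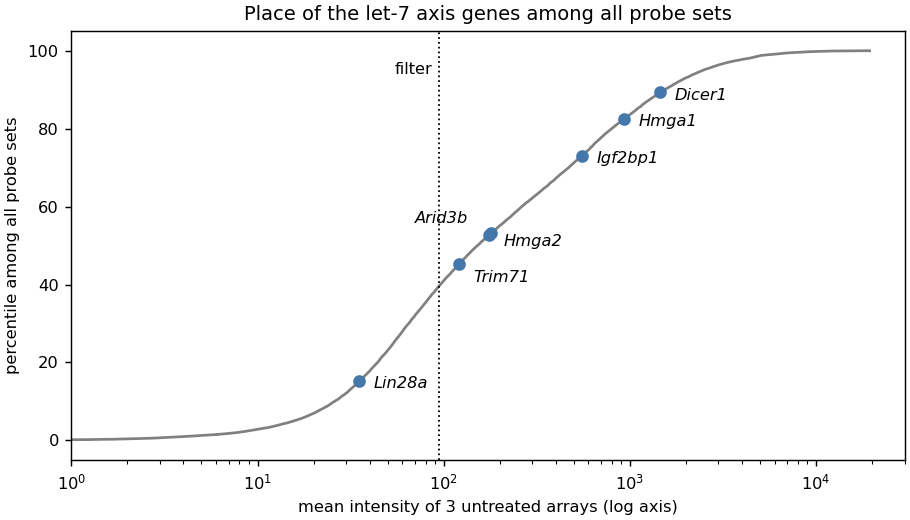
Percentile of each let-7 axis gene among all 29215 probe sets (vertical axis) against its mean intensity on the 3 untreated arrays (horizontal log axis), with the grey curve giving all probe sets and the dotted line the filter at 94.4. Lin28a sits left of the filter at percentile 15.2 and Dicer1 highest at 89.3.

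No let-7 axis gene passed the test between C1q and untreated neurons by limma, whose adjusted p was 0.9999 for each of the 6 tested genes. None had an unadjusted p under 0.05, and in none did the untreated and C1q arrays separate. Over all 17529 probe sets tested, 0 were called, which is 0%, while 2.49% had an unadjusted p under 0.05 and 5.72% had groups that did not overlap, 4.42% with C1q below and 1.30% with C1q above. With array weights in limma 447 of the 17529 probe sets were called, 130 higher and 317 lower. Of these 447, 123 named 1 gene alone, as did 10302 of all probe sets tested, and 0 was a let-7 axis gene. With so small a share called, 0 among 6 genes is not read as a result about them. All 6 tested genes had a 95% interval inside 1.5-fold either way, as did 98.8% of probe sets tested and 99.8% of genes on 1 probe set each. The bounds nearest to that limit were those of Trim71, at 0.778 and 1.22. Means were lower after C1q for 5 of the 6 and higher for 1, where 63.3% of all probe sets tested were lower. With quantile normalization the balance stayed at 5 lower to 1 higher, and with median centring it was 4 to 2 because Hmga1 turned. The share lower of all genes tested on 1 probe set each was 46.9% with quantile normalization and 41.0% with median centring. Fold changes are on the log2(intensity + 16) scale, which understates the change of dim genes.

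**Figure D2:**
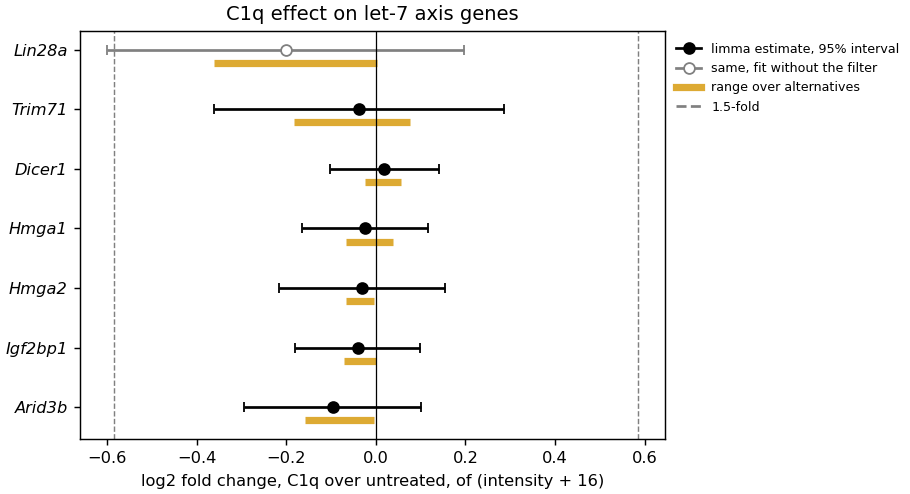
Log2 fold change of C1q over untreated with its 95% interval for the 7 let-7 axis genes, on the log2(intensity + 16) scale, with yellow bars for the range over the alternative settings and dashed lines at 1.5-fold. Every interval of the 6 tested genes spans 0 within the dashed lines, and the open point of Lin28a comes from the fit without the filter.

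Among the regulators, Lin28a was dim on every array. Lin28a encodes the RNA-binding protein that holds back let-7 maturation. The probe set read 29.8, 40.4 and 35.7 in untreated neurons, in the order of arrays 1 to 3, and 17.5, 31.3 and 39.5 after C1q in the same order. The groups overlapped, and C1q array 1 was the lowest of the 6. The means were 35.3 ± 5.32 in untreated and 29.4 ± 11.2 in C1q-treated neurons (SD, n = 3 each). Lin28a lay below the filter and so was fitted only together with all unfiltered probe sets, where its fold change was 0.870 (95% interval 0.660 to 1.15) and limma's adjusted p was 1. With C1q array 1 left out, its log2 fold change went from -0.20 to 0.0036. At such an intensity the share of background is unknown, so a change of the transcript could lie outside that interval.

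Trim71, the vertebrate counterpart of worm lin-41, encodes a protein that binds and silences messenger RNAs and is itself a classic let-7 target. It read 100.2, 140 and 124 in untreated neurons, in the order of arrays 1 to 3, and 97.4, 111 and 146 after C1q in the same order. The lowest value of each group was on its array 1, and the C1q arrays spanned the whole untreated range. The means were 121 ± 20.1 and 118 ± 25.2 (SD, n = 3 each), and C1q over untreated gave a fold of 0.974 (95% interval 0.778 to 1.22). Its log2 fold change of -0.04 turned to 0.06 without untreated array 2 and to 0.08 without C1q array 1. The within-group SD of the log2 value was 0.241, beside a median of 0.122 for probe sets between percentiles 40 and 60.

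Dicer1 encodes the ribonuclease that cuts let-7 and most other microRNA precursors into the mature form, and its transcript is also a described let-7 target. The probe set read 1521, 1386 and 1462 in untreated neurons, in the order of arrays 1 to 3, and 1566, 1463 and 1400.4 after C1q in the same order. Both groups covered nearly the same range. The means were 1456 ± 67.4 and 1476 ± 83.6 (SD, n = 3 each), and Dicer1 was the 1 tested member with a higher mean after C1q. The fold change was 1.01 (95% interval 0.931 to 1.10). Its log2 fold change of 0.02 turned to -0.02 without untreated array 2 and without C1q array 1.

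**Figure D3:**
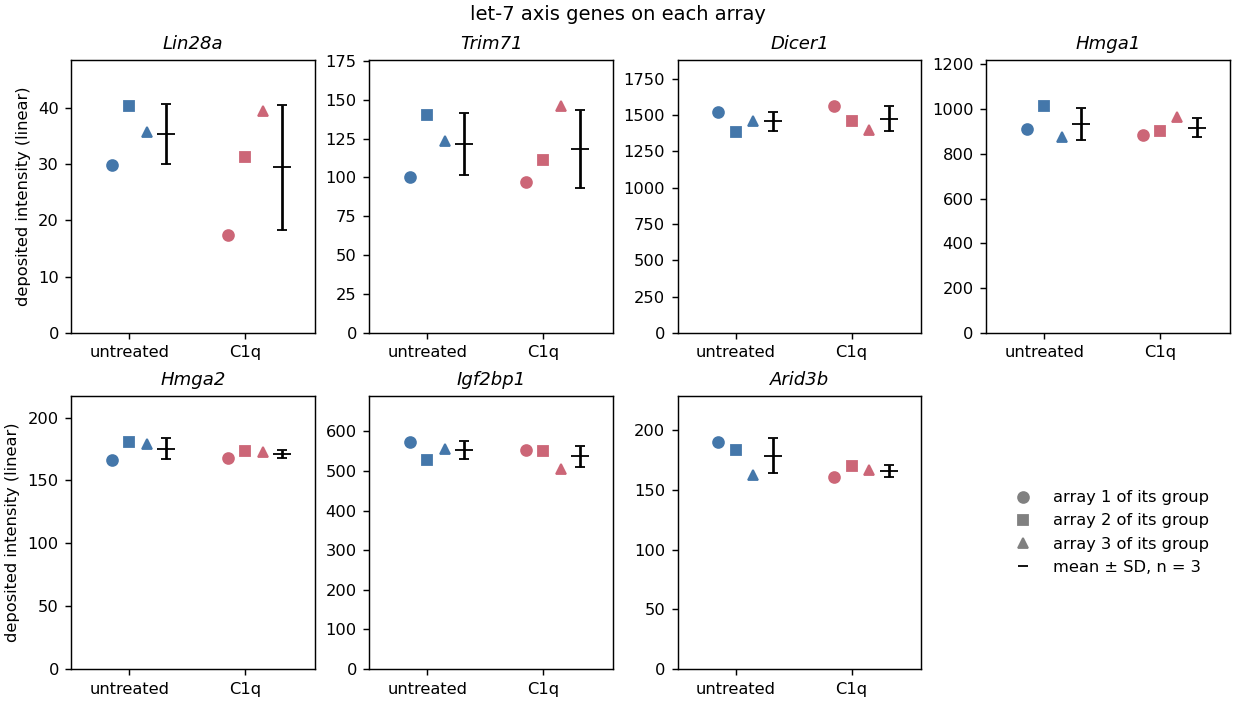
Deposited intensity (linear axis from 0) of the 7 let-7 axis genes on the 3 untreated (blue) and 3 C1q (red) arrays, 1 panel per gene, with symbols for the array number and black bars for mean ± SD, n = 3. In every panel the groups overlap, and Lin28a and Trim71 scatter most for their level.

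The high mobility group genes encode small proteins that bend AT-rich DNA, and Hmga2 is the let-7 target with the best known string of sites. Hmga2 read 166, 181 and 179 in untreated neurons, in the order of arrays 1 to 3, and 168, 173 and 173 after C1q in the same order. All 3 C1q values lay inside the untreated range. The means were 175 ± 8.09 and 171 ± 3.09 (SD, n = 3 each), and C1q over untreated gave a fold of 0.979 (95% interval 0.861 to 1.11). Its within-group SD was the smallest of the tested members, at 0.047 on the log2 scale.

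Hmga1, the relative of Hmga2 that is also a described let-7 target, read 909, 1016 and 877 in untreated neurons, in the order of arrays 1 to 3, and 884, 902 and 965 after C1q in the same order. All 3 C1q values again lay inside the untreated range. The means were 934 ± 72.9 and 917 ± 42.3 (SD, n = 3 each), and C1q over untreated gave a fold of 0.984 (95% interval 0.892 to 1.08). The sign of its log2 fold change of -0.02 rested on the scaling, at 0.0028 with median centring but -0.011 with quantile normalization. Without untreated array 2 the log2 fold change was 0.04. With C1q array 1 left out it was 0.0017, and with array weights 0.037.

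Igf2bp1 encodes an RNA-binding protein that stabilises and transports messenger RNAs, among them that of beta-actin in growing axons. It read 574, 529 and 555 in untreated neurons, in the order of arrays 1 to 3, and 554, 551 and 506 after C1q in the same order. The lowest value was that of C1q array 3 and the groups overlapped. The means were 553 ± 22.9 and 537 ± 26.7 (SD, n = 3 each), and C1q over untreated gave a fold of 0.972 (95% interval 0.883 to 1.07). The mean stayed lower after C1q in all alternatives that can move the fold change, but its log2 fold change was -1e-04 without C1q array 3.

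Arid3b, a let-7 target that encodes a DNA-binding protein with an AT-rich interaction domain, had the fold change farthest from 1 among the tested members. It read 191, 183 and 163 in untreated neurons, in the order of arrays 1 to 3, and 161, 171 and 166 after C1q in the same order. Untreated array 3 lay among the C1q values, so the groups overlapped. The means were 179 ± 14.5 and 166 ± 4.72 (SD, n = 3 each), and C1q over untreated gave a fold of 0.936 (95% interval 0.816 to 1.07). Its unadjusted p in limma was 0.310, and 22.2% of all probe sets tested had a smaller one. Its log2 fold change of -0.10 kept its sign in all alternatives that can move it, and ran from -0.16 to -0.05 as each array was left out. With array weights it was -0.0046, the nearest to 0 of the 6 tested members, and Trim71 at -0.12 was then the farthest.

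Of the 7 members 5 shared a pattern between arrays, which did not follow treatment and was noticed after the values were seen. Untreated array 2 and C1q array 3 gave the 2 highest values of Lin28a, Trim71 and Hmga1 and the 2 lowest of Dicer1 and Igf2bp1. Hmga2 and Arid3b did neither. The same pair of arrays was highest for 11.1% and lowest for 18.1% of all 29215 probe sets, either for 29.3%, and of those tested highest for 8.38% and lowest for 25.9%, either for 34.3%. Across the probe sets tested, the deviations of these arrays from their group means had a correlation of 0.452, the highest of the 9 pairs of an untreated and a C1q array. As log2 deviations from the group mean, Trim71 stood at 0.20 on untreated array 2 and 0.29 on C1q array 3, and at -0.23 on array 1 of both groups. Lin28a stood at 0.14 and 0.32 on the first pair and at -0.16 and -0.41 on the second. Dicer1 stood at -0.07 on both arrays of the first pair, and Igf2bp1 at -0.06 and -0.08. Hmga1 stood at 0.12 and 0.07. Over probe sets of like level, the median deviation on untreated array 2 and C1q array 3 was 0.058 and 0.013 below percentile 40, where Lin28a lay, and 0.014 and 0.003 from percentile 40 to 60, where Trim71 lay. It was -0.051 and -0.029 from percentile 60 to 80, where Igf2bp1 lay, and -0.048 and -0.023 above that, where Dicer1 and Hmga1 lay. Dicer1 and Igf2bp1 had the sign of their class medians on both arrays, and Hmga1 the opposite one. Class medians of 0.014 and 0.003 for Trim71, and of 0.013 for Lin28a on C1q array 3, were close to 0. The median within-group SD of the log2 value was 0.122 in the class of Trim71 and 0.158 in that of Lin28a. No direction is read from those medians. A median over a class is smaller in size than most single deviations, so the sizes are not compared. The part of these array-wide shifts in the members' values was not tested.

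**Figure D4:**
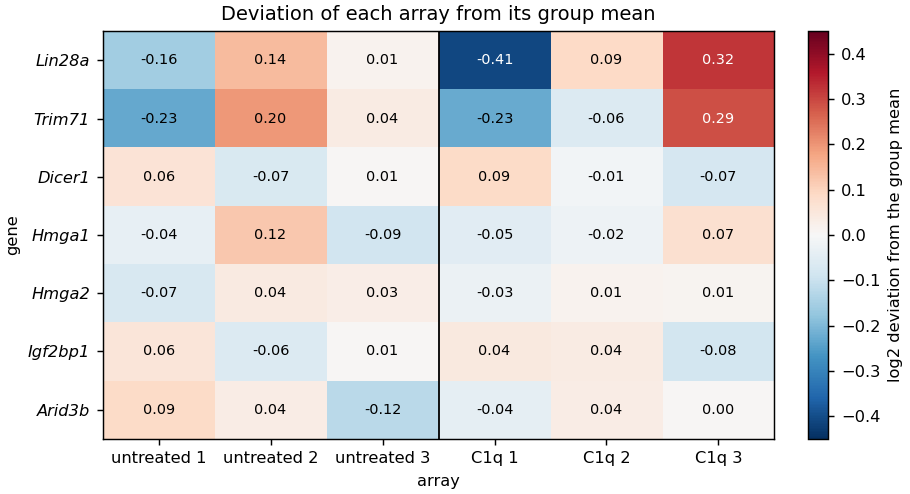
Log2 deviation of each array from the mean of its group for the 7 let-7 axis genes (rows) on the 6 arrays (columns), with red above and blue below the group mean. Lin28a and Trim71 are blue on array 1 of both groups and red on untreated array 2 and C1q array 3, where Dicer1 and Igf2bp1 are pale blue.

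The rest of the pathway, taken from lists of 80 symbols, had 61 genes with a value and 53 that were tested, 1 probe set per gene. None of the 53 passed by limma, none had an unadjusted p under 0.05, and on the probe set that stands for each gene the groups overlapped in all 53. Over all 9652 genes tested on 1 probe set each, 0.684% had an unadjusted p under 0.05 and 4.96% had groups that did not overlap. Means were higher for 23 and lower for 30 of the 53. With quantile normalization or median centring they were higher for 31 and lower for 22, so the tilt rested on the scaling. It also rested on single arrays, with 31 higher and 22 lower without untreated array 1. Without untreated array 2 the balance was 13 higher and 40 lower. Over all genes tested 63.0% were lower, 46.9% with quantile normalization and 41.0% with median centring.

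The machinery that makes and uses microRNAs had 11 tested genes, 6 with higher and 5 with lower means, with a median log2 fold change of 0.002 beside -0.016 for all genes tested. Log2 fold changes ran from -0.05 to 0.04. Dgcr8, which encodes the RNA-binding partner of the nuclear ribonuclease Drosha, averaged 1040.0 ± 18.5 in untreated and 1073 ± 47.6 in C1q-treated neurons (SD, n = 3 each), and its fold change was 1.03 (95% interval 0.953 to 1.11). The helicase genes Ddx5 and Ddx17, whose products assist that first cut, had fold changes of 0.964 and 0.974. Drosha itself had a fold change of 1.01 and Xpo5, which carries precursors out of the nucleus, 1.00. The Argonaute gene Ago4 had 0.966 and Tnrc6a, which encodes the silencing partner of Argonaute, 0.971. Ago1, Ago2, Ago3, Tnrc6c and Srrt had no probe set naming that gene alone, and no value is given for them. With either rescaling 7 of the 11 were higher and 4 lower.

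Genes whose products bind, tail or degrade the let-7 precursor had 1 higher and 6 lower means among 7 tested, the same balance as with either rescaling, and their median log2 fold change was -0.037. None passed, and all 7 log2 fold changes lay within the range of -0.181 to 0.138 that held the middle 95% of all probe sets tested. Tut4, which encodes the uridine transferase that Lin28a recruits to the precursor, averaged 1637 ± 51.4 in untreated and 1576 ± 52.2 in C1q-treated neurons (SD, n = 3 each). Its fold change was 0.963 (95% interval 0.895 to 1.04). Dis3l2, the exonuclease gene whose product destroys uridine-tailed let-7 precursors, read 927 ± 45.8 and 881 ± 50.5 (SD, n = 3 each), and C1q over untreated gave a fold of 0.951 (95% interval 0.868 to 1.04). Syncrip, which encodes an RNA-binding protein, had a fold change of 0.971, and Khsrp, whose product promotes let-7 processing, 0.975. Tut7, Xrn2 and Zswim8, also listed, had no probe set naming that gene alone.

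Other described let-7 targets had 10 higher and 14 lower means among 24 tested, a balance of 16 to 8 with either rescaling, and the median log2 fold change was -0.005. Acvr1c, a receptor gene of the activin family, had the lowest log2 fold change of the lists. It read 112, 132 and 128 in untreated neurons, in the order of arrays 1 to 3, and 113, 99.7 and 99.0 after C1q in the same order. The groups overlapped through untreated array 1 and C1q array 1 alone. The means were 124 ± 10.6 and 104 ± 7.74 (SD, n = 3 each), and C1q over untreated gave a fold of 0.857 (95% interval 0.730 to 1.01), with an unadjusted p of 0.0573 in limma. Acvr1c is a dim gene near the filter, and its adjusted p was 0.9999, with a lowest of 0.114 and a highest of 1 over its alternatives. Tgfbr1, a receptor gene for transforming growth factor beta, had a fold change of 0.950 (95% interval 0.872 to 1.03), and the histone chaperone gene Nap1l1 0.947 with 0.875 to 1.02. With array weights limma's adjusted p was 0.0821 for Tgfbr1 and 0.0768 for Nap1l1, both lower than the 0.114 of Acvr1c. The oncogenes Myc and Mycn had fold changes of 1.02 and 1.04 and Nras 1.02, and the cell cycle genes Ccnd1 and Ccnd2 had 1.02 and 0.991. Insr and Igf1r, the receptor genes for insulin and insulin-like growth factor, had 1.02 and 1.01.

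**Figure D5:**
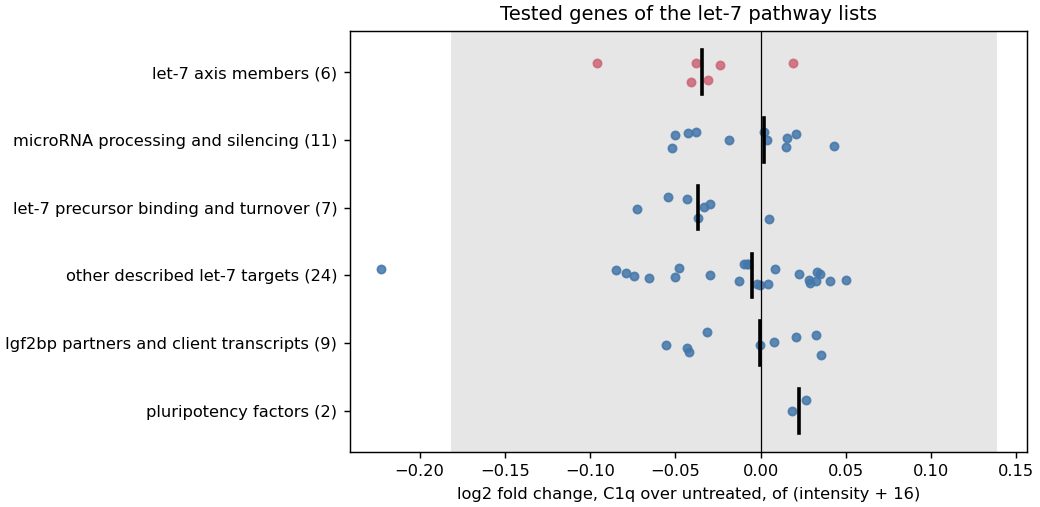
Log2 fold change of C1q over untreated for each tested gene of 6 lists (points, with the number tested in brackets and the median as a black bar), with the middle 95% of all 17529 probe sets in grey. All points but Acvr1c, among the other let-7 targets, lie inside the grey band.

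Partners and client transcripts of Igf2bp proteins had 4 higher and 5 lower means among 9 tested, or 5 and 4 with either rescaling. Ybx1 and Hnrnpu, which encode proteins of the Igf2bp1 particle, had fold changes of 0.971 and 0.970, and all 3 probe sets of Ybx1 had lower means after C1q. On 1 of them, not the one that stands for the gene, the groups did not overlap, at 6043 to 6496 untreated and 5707 to 6020.0 after C1q, with an adjusted p of 0.9999 in limma. Fmr1, the fragile X gene for an RNA-binding protein of neuronal granules, had 0.962 (95% interval 0.888 to 1.04). The client transcript Actb had a fold change of 1.01, Igf2 1.02 and Mapt 1.01. Of the pluripotency genes tied to Lin28a, Pou5f1, Nanog and Esrrb lay below the filter, at 50.5 ± 7.03, 46.6 ± 8.83 and 59.2 ± 4.28 in untreated neurons (SD, n = 3 each). Sox2, a gene of neural progenitors as well, ranged from 1140.2 to 1163 untreated and from 1130.3 to 1213 after C1q, and its fold change was 1.01 (95% interval 0.941 to 1.09). Klf4 had a fold change of 1.02, and its 2 probe sets had opposite signs. Without C1q array 3 the log2 fold change of Sox2 was -0.0078, and without untreated array 1 or 3 that of Klf4 was -0.02 or -0.03.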

How the data were processed

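Biotinylated cRNA was made from column-purified total RNA, per the labels' protocols. The deposited table holds 1 linear intensity for each of 29215 probe sets on 6 arrays, and how the authors summarised and normalized it is not given in the sources used here. Gene names come from the platform annotation where it names 1 gene (15310 probe sets; 323 name several, 13582 none), and 15279 of these matched RefSeq's GRCr8 table. A gene with several probe sets was represented by the one of highest mean.

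Values were used as deposited, since array medians differed by at most 0.0696 after log2(intensity + 16). The brightest 60% of probe sets were fitted in limma 3.58.1 (R 4.3.3), using lmFit and a trended eBayes, with Benjamini-Hochberg adjustment over 17529 probe sets and calls under 0.05. The limma fit was tested on data simulated with independent noise for each probe set, without shifts shared across an array. All members were described, and up to 3 genes per pathway list with the smallest unadjusted p; other listed genes and the array pattern were named after their values were seen. Members and lists were chosen with earlier results of these data known. Alternatives covered scaling, filter, pseudocount, variance model, array weights, replicate block, probe set averaging and leaving out arrays. The number of arrays limits the precision.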

Additional observations from a re-analysis of the deposited data

How the results depend on the processing

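Over 113 fits of the 7 let-7 axis genes under alternatives, 0 were called by limma at an adjusted p under 0.05, 104 kept the sign and 9 changed it. Of these 9, 2 came from settings that keep all arrays, both for Hmga1, whose log2 fold change was 0.0028 with median centring and 0.037 with array weights. Filter, variance model, replicate block and probe set averaging leave the members' log2 fold changes as they are. Fits under those settings could only keep the sign. Leaving out each array gave log2 fold changes from -0.36 to 0.0036 for Lin28a, -0.067 to 0.037 for Hmga1, -0.18 to 0.076 for Trim71, -0.024 to 0.056 for Dicer1, -0.0078 to 0.042 for Sox2 and -0.028 to 0.13 for Klf4. The median percentile of the members' untreated level was 53.1, and 53.0 to 53.8 as each untreated array was left out. The cause of these shifts was not tested. Over all probe sets, limma called 1 without the filter, 447 with array weights and 9 with the replicate block. As each array was left out it called 0 to 38, the 38 without untreated array 2. None of these calls named a let-7 axis gene or a tested gene of the pathway lists. Only calls that named 1 gene alone could do so, which were 123 of the 447, 1 of the 9, 0 of the 38 and 0 of the 1. The array weights were 5.51 for untreated array 3 and 0.335 to 1.81 for the others. Arrays of the same number did not deviate together, with correlations of 0.014, -0.453 and -0.134 across probe sets, so the replicate number was not taken as pairing. With the brightest 40% of probe sets, Trim71, Hmga2 and Arid3b were no longer tested. Signal over background is unknown and limits what can be said of Lin28a and Trim71.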
